A study of Arabidopsis thaliana with 12 samples.

Results

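The carbon fixation enzymes examined here were the products of 10 nuclear genes of Arabidopsis thaliana, RBCS1A, RBCS1B, RBCS2B, RBCS3B, RCA, CA1, CA2, GAPA, GAPB and PRK, out of 33602 genes in the expression table. They were chosen by name, with earlier results of these data known. CA2 stood among the genes with the lowest mutant to WT ratio in clf28swn7, and the set was built around it, so the values of clf28swn7 against WT are given below as a description without a test. Levels are in FPKM, fragments counted per length of transcript and scaled to the mapped fragments of the library. All 10 genes reached 1 FPKM in every one of the 12 libraries, and 21227 genes in all passed the filter, which asked for 1 FPKM or more in 3 libraries or more.

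The RNA came from whole Col-0 seedlings collected at 10 days after germination, with 3 libraries for each of 4 genotypes. WT was Col-0 without a mutation. The clf28swn7 double mutant carries mutations in CLF and SWN, the methyltransferases of Polycomb repressive complex PRC2, and its shoot keeps embryonic traits and its root is stunted. The emf1-2 mutant is impaired in the plant-specific Polycomb protein EMF1 and also has an embryo-like shoot, but is described as forming a root like that of WT. The ring1ab mutant is altered in RING1A and RING1B, ubiquitin ligases of PRC1, and is a weak mutant that forms leaves and flowers. Each mutant genotype is 1 combination of alleles, and the sources used here name no transgene and no treatment. The sources name the 3 libraries of a genotype biological replicates and do not say whether plants were pooled. Seedlings of all genotypes grew in long days on agar plates that contained sucrose.

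In photosynthetic carbon fixation, Rubisco joins CO2 to ribulose bisphosphate in the chloroplast stroma. The enzyme is built from large subunits encoded in the plastid genome and small subunits encoded by the RBCS genes of the nucleus. RCA, Rubisco activase, frees Rubisco of inhibitory sugar phosphates. GAPA and GAPB are the subunits of the NADP-dependent glyceraldehyde-3-phosphate dehydrogenase, which carries out the reductive step of the Calvin-Benson cycle, and PRK, phosphoribulokinase, regenerates the acceptor of CO2. Carbonic anhydrases interconvert CO2 and bicarbonate. CA1 is mainly a stromal protein and abundant in leaves, and CA2 is its close relative. In Arabidopsis leaves, CA1 also acts in the response of guard cells to CO2.

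RBCS1B, RBCS2B and RBCS3B, the B genes, lie next to each other, and their sequences and that of RBCS1A are shown because their likeness limits how reads can be assigned. In the TAIR10.1 annotation of RefSeq, RBCS3B (AT5G38410) is at chr5:15376988-15378642, RBCS2B (AT5G38420) at chr5:15380907-15382071 and RBCS1B (AT5G38430) at chr5:15383167-15385320, all on the minus strand, while RBCS1A (AT1G67090) is at chr1:25048158-25049667, also on the minus strand. The first 90 coding bases of each gene follow, from TAIR10.1, 5′ to 3′, with capitals where a base is unlike the base of RBCS1A at that position. The stretch is at chr1:25049160-25049249 for RBCS1A, chr5:15385066-15385155 for RBCS1B, chr5:15381889-15381978 for RBCS2B and chr5:15378217-15378306 for RBCS3B, each on the minus strand.
RBCS1A: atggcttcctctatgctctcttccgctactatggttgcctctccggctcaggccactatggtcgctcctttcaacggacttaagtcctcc
RBCS1B: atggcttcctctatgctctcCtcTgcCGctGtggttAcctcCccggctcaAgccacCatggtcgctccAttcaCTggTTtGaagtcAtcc
RBCS2B: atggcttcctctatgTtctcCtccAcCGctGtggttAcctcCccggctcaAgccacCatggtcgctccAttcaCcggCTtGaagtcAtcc
RBCS3B: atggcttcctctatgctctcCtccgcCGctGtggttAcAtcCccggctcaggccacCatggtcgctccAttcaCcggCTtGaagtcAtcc
In this stretch RBCS1B and RBCS2B each differed from RBCS1A at 16 bases and RBCS3B at 14. Over the whole coding sequence, RBCS1A was 90.4 to 90.6% identical to the B genes, which were 96.7 to 97.3% identical to each other. Of all 50-base stretches of the coding sequence, 3.64% in RBCS1A, 51.3% in RBCS1B, 38.0% in RBCS2B and 40.6% in RBCS3B were found unchanged in another RBCS gene. These stretches are shorter than the paired reads described in the methods, and untranslated parts were not compared. The share of reads that fit another RBCS gene equally well was not measured and may be smaller. How reads from shared stretches were divided is not given in the sources used here. The split among the B genes is therefore less certain than the split between RBCS1A and the B genes together.

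The pairs of related genes among the other members were less alike. CA1 (AT3G01500, chr3:194426-198664, minus strand) and CA2 (AT5G14740, chr5:4757856-4762666, plus strand) were 81.9% identical over their coding sequences, and GAPA (AT3G26650, chr3:9794862-9797045, plus strand) and GAPB (AT1G42970, chr1:16127353-16129895, plus strand) were 74.3% identical, with 0% of 50-base stretches in common in either pair. GAPA and GAPA-2, which is not a member, were 85.8% identical and also had 0% in common. RCA and PRK were not compared with other genes. RCA (AT2G39730) is at chr2:16570746-16573692 on the minus strand and PRK (AT1G32060) at chr1:11532199-11534639 on the plus strand. CA1 overlaps LSF1 (AT3G01510) by 343 bases on the same strand. LSF1 was at 5.70 to 6.92 FPKM in WT, 16.7 to 17.8 in emf1-2 and 12.3 to 12.9 in clf28swn7. It stood above CA1 in every clf28swn7 library and in emf1-2 replicate 2, where CA1 was at 14.7 FPKM. How reads from the shared bases were assigned is not given in the sources used here, which limits the CA1 values of both mutants.

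The mutated genes were checked in every library. CLF was at 9.17, 9.56 and 7.98 FPKM in WT and at 0.511, 0.224 and 0.169 in clf28swn7, and SWN was at 15.8, 15.8 and 17.6 in WT and 3.80, 3.62 and 3.36 in clf28swn7. RING1B was at 7.59, 5.999 and 7.61 FPKM in WT and 0.426, 0.377 and 0.859 in the libraries labelled ring1ab. RING1A went the other way in them, with 201, 183 and 182 FPKM against 4.03, 5.58 and 4.63 in WT. EMF1 was at 47.0, 57.4 and 46.2 FPKM in emf1-2 against 7.31, 8.79 and 8.05 in WT, and at 56.0, 53.4 and 52.6 in clf28swn7. A gene-level FPKM does not show which part of a transcript is present, so the high RING1A and EMF1 values do not check the ring1ab and emf1-2 labels. Each direction given below for ring1ab or emf1-2 is that of the libraries labelled so. From the worth of 1 fragment in 4581 genes with 1 exon, the depth was estimated at 18500000 to 21500000 mapped fragments in WT, ring1ab and emf1-2 libraries and 14100000 to 14900000 in clf28swn7. Libraries of 1 genotype correlated at 0.976 to 0.992 across genes on the log2(FPKM + 1) scale, and at most 305 of the 21227 tested genes had identical values in such a pair.

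All 10 carbon fixation genes were highest in WT, lower in ring1ab, lower again in emf1-2 and at their lowest mean in clf28swn7. The libraries of neighbouring genotypes in this order did not overlap for any member, except for RBCS1A between emf1-2 and clf28swn7. As a background, 21.5% of tested genes were lower without overlap in ring1ab than in WT, 30.1% in emf1-2 than in ring1ab and 40.3% in clf28swn7 than in emf1-2. The summed FPKM of the 10 genes made up 2.82% ± 0.09 (SD, n = 3) of the FPKM total of a library in WT, 1.80% ± 0.23 in ring1ab, 0.654% ± 0.095 in emf1-2 and 0.483% ± 0.048 in clf28swn7. In bulk seedlings, fewer cells of a type and less RNA per cell cannot be told apart.

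**Figure D1:**
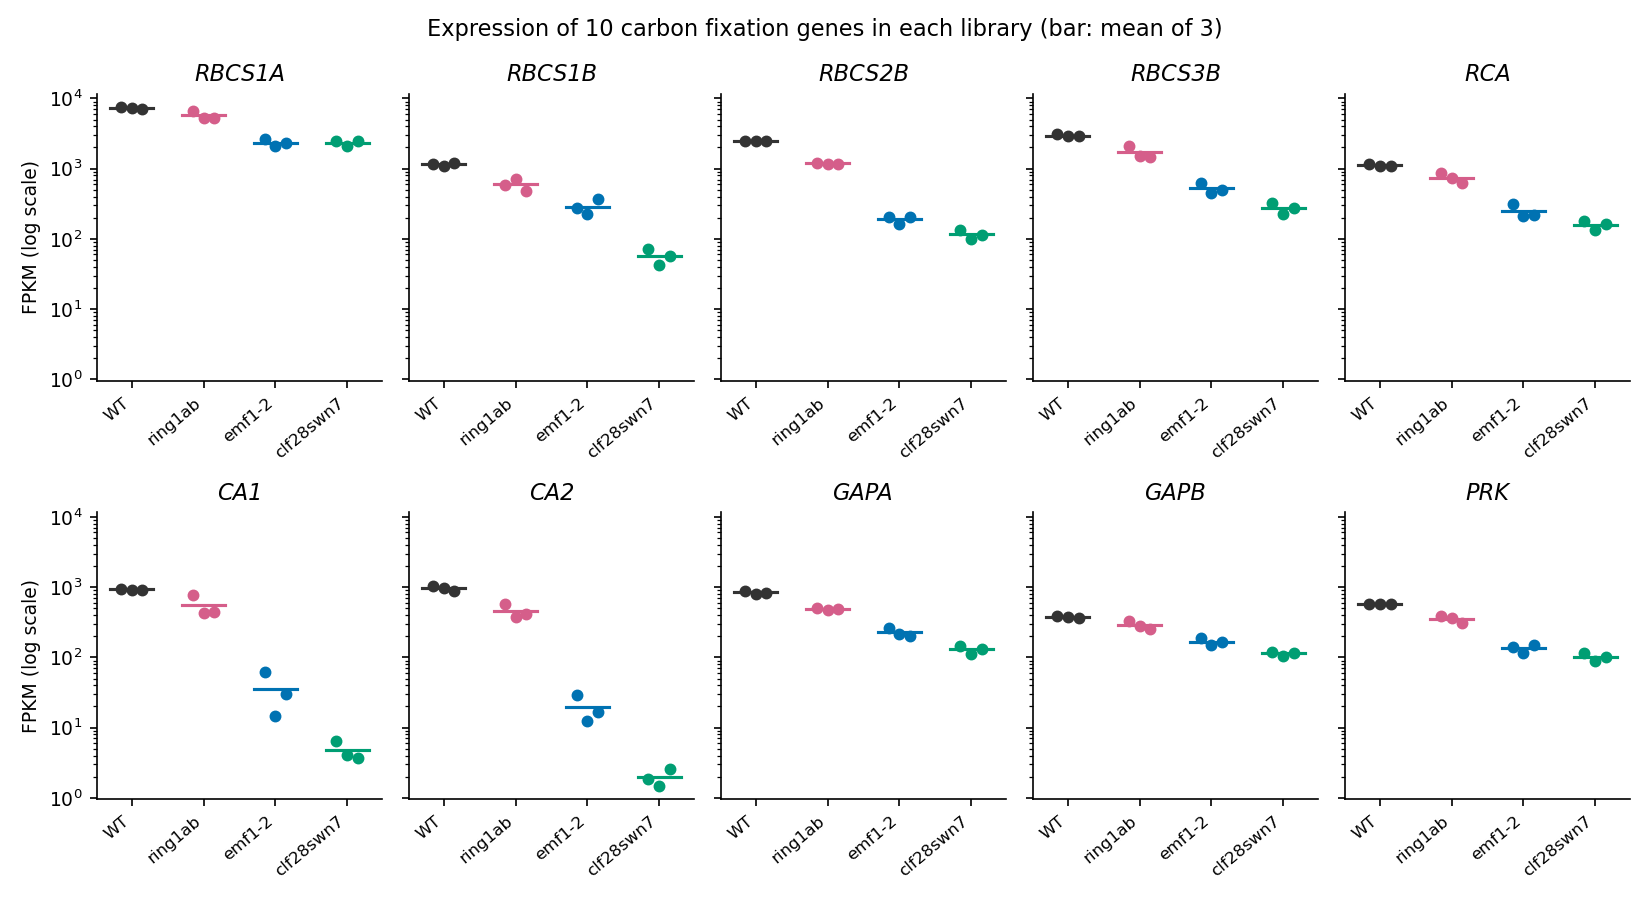
FPKM on a log scale (y axis) of each of the 10 carbon fixation genes in the 4 genotypes (x axis), with 1 point per library and a bar at the mean of 3. Every gene steps down from WT to ring1ab to emf1-2, and the last step to clf28swn7 is widest for CA1 and CA2 and absent for RBCS1A.

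Markers of other tissues and stages moved along with the genotypes. The 7 embryo markers summed to 1.19 to 6.65 FPKM in WT, 6988 to 12736 in ring1ab, 264 to 592 in emf1-2 and 19313 to 21286 in clf28swn7. The order of this sum was unlike that of the carbon fixation genes, because ring1ab stood above emf1-2. CRU3, CRA1 and OLEO1 carried the sum, with ring1ab means of 4574, 3640 and 1314 FPKM. ABI3 and LEC2 went the other way, with means of 17.6 and 0.0267 FPKM in ring1ab and 28.0 and 1.16 in emf1-2. Of 6 tested embryo markers, 4 were called lower in emf1-2 than in ring1ab, beside 14.1% of tested genes. Of the 7 embryo markers, 4 were under 1 FPKM in every WT library, and 1, LEC1, was listed at 0 in every WT and emf1-2 library. The 9 root markers summed to 258 to 314 FPKM in WT, 326 to 446 in ring1ab, 57.3 to 92.2 in emf1-2 and 185 to 225 in clf28swn7, so that their sum was lowest in emf1-2. Of the 9, 6 were called lower and 1, NRT2:1, higher in both emf1-2 and clf28swn7. Over all tested genes, 12.4% were called lower and 13.7% higher in emf1-2, and 12.3% and 15.1% in clf28swn7. MYB36 had its lowest mean in clf28swn7, at 3.22 FPKM against 5.37 in emf1-2, and PHT1;1 was at 139 FPKM in clf28swn7 against 71.1 in WT. The sum of the 6 guard cell and stomatal lineage markers was lower in every mutant, going from 46.8 to 49.7 FPKM in WT to 25.4 to 25.6 in ring1ab, 10.9 to 12.4 in emf1-2 and 8.77 to 11.5 in clf28swn7. FMA held the largest part of the WT sum, with means of 25.3 FPKM in WT, 12.1 in ring1ab, 1.42 in emf1-2 and 1.48 in clf28swn7. Of these 6 markers, 1 was called lower in ring1ab, 3 in emf1-2 and 5 in clf28swn7, beside 1.03, 12.4 and 12.3% of tested genes. MUTE overlapped with WT in emf1-2 and had a higher mean in clf28swn7 (3.91 FPKM) than in WT (1.81). The 3 epidermis and phloem markers summed to 280 to 325, 354 to 370, 392 to 653 and 813 to 895 FPKM in WT, ring1ab, emf1-2 and clf28swn7. PDF1 carried that sum, with means of 226 FPKM in WT, 438 in emf1-2 and 810 in clf28swn7. In the same order, the phloem marker SUC2 was at 48.7, 29.3 and 22.1 FPKM and ATML1 at 30.3, 26.0 and 22.3. The part of these cell types in the results below was not tested.

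The libraries labelled emf1-2 were first compared with those of WT. A gene was called when its log2 fold change on the log2(FPKM + 1) scale was at least 1 in size and its unadjusted p under 0.05 in limma, as in the methods of the study, and p-values were adjusted by the Benjamini-Hochberg procedure across all 21227 genes. All 10 members fell, beside a background of 12.4% of tested genes called lower and of 38% among the 1054 strongly expressed genes, those whose WT libraries averaged 100 FPKM or more. The median log2 fold change of the members was -2.14, and that of all tested genes was 0.19. These tests share the 3 WT libraries with the contrast that the choice of CA2 rested on.

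In ring1ab the changes were smaller. Of the 10 members, 2 fell by the same rule, beside a background of 1.03% and of 2.09% among strongly expressed genes. With a pseudocount of 0.1 in place of 1, the same count of members fell and 397 genes in all were called lower in place of 219. In the main setting 9 had an adjusted p under 0.05, beside a background of 14.6% of tested genes lower at that threshold. The ring1ab libraries lay below every WT library for 10 of 10 members, as they did for 21.5% of tested genes. The median was -0.79 for the members and 0.04 for all tested genes. WT libraries are shared here too.

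The comparison of emf1-2 with ring1ab used no library of the contrast that the choice of CA2 rested on. It is still not independent of the choice, because the members were chosen with earlier results of these data known. In addition, 1 estimate of the spread was taken from all 12 libraries. Between these mutants 9 of 10 members were lower in emf1-2, beside a background of 14.1% and 28.8% among strongly expressed genes. GAPB was the exception, at a log2 difference of -0.77 (SE 0.11, limma adjusted p = 7.9e-05), under the fold threshold. The median was -1.48 for the members and 0.12 for all tested genes.

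In clf28swn7, all 10 members were past the fold threshold against WT, where 12.3% of tested genes were called lower and 40.6% of the strongly expressed ones. The log2 differences ran from -8.36 for CA2 to -1.66 for RBCS1A, with a median of -3.13, against 0.07 over all tested genes. Mean FPKM was between 0.204% (CA2) and 31.8% (RBCS1A) of the WT mean.

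**Figure D2:**
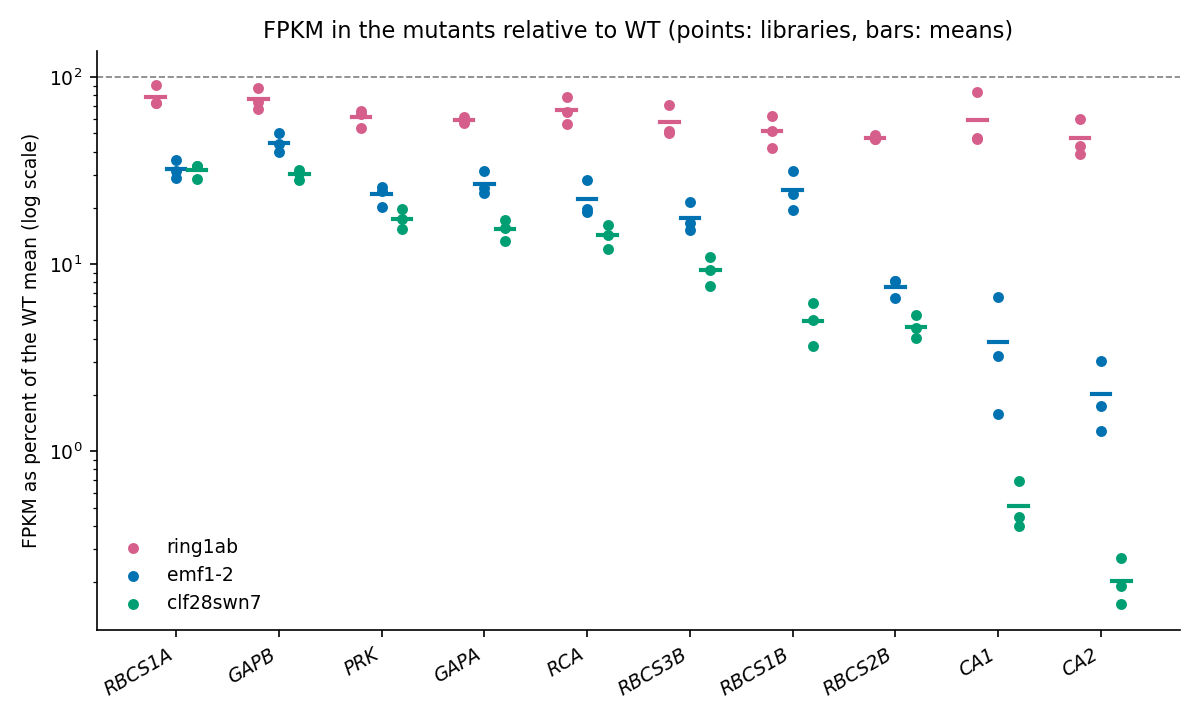
FPKM as percent of the WT mean (y axis, log scale) for each carbon fixation gene (x axis) in ring1ab, emf1-2 and clf28swn7, with points for libraries, bars for means of 3 and a dashed line at WT. The ring1ab means lie between 47.0 and 78.5%, whereas the clf28swn7 means reach from 31.8% for RBCS1A down to 0.204% for CA2.

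CA1 and CA2 had the lowest mutant levels of the members relative to WT in both severe mutants. CA2 was at 1045, 971 and 877 FPKM in WT, 572, 373 and 415 in ring1ab, 29.3, 12.4 and 16.7 in emf1-2, and 1.83, 1.47 and 2.59 in clf28swn7. No CA2 libraries of different genotypes overlapped. In emf1-2 CA2 fell by 5.64 on the log2 scale (SE 0.26, limma adjusted p = 1.2e-08), the 7th lowest value among the 21227 genes. The fall in ring1ab was 1.11 (SE 0.26, adjusted p = 0.0073), and without ring1ab replicate 2 it was 0.98, under the fold threshold. Between emf1-2 and ring1ab the log2 difference was -4.53 (SE 0.26, adjusted p = 8.3e-08). In clf28swn7 CA2 had the 2nd lowest log2 difference of all tested genes, a rank that restates how it was chosen. Its FPKM values there correspond to an estimated 62 to 105 fragments per library, against 46060 to 55965 in WT.

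CA1 was at 946, 924 and 912 FPKM in WT, 773, 433 and 441 in ring1ab, 61.9, 14.7 and 29.8 in emf1-2, and 6.42, 4.14 and 3.69 in clf28swn7. Relative to its mean, its spread within ring1ab and within emf1-2 was the widest among the members, and replicate 1 stood above the others in both. CA1 fell by 4.89 on the log2 scale in emf1-2 (SE 0.41, limma adjusted p = 1.1e-06). In ring1ab the log2 difference was -0.81 (SE 0.41, adjusted p = 0.15), and it did not pass, while without ring1ab replicate 1 it was -1.09 and passed. Against ring1ab, emf1-2 was lower by a log2 difference of -4.08 (SE 0.41, adjusted p = 5.3e-06). The clf28swn7 difference was -7.36, the 4th lowest of all tested genes.

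By mean FPKM, CA2 ranked 56th of all genes in WT, 136th in ring1ab, 7260th in emf1-2 and 18136th in clf28swn7, and CA1 ranked 60th, 113th, 3978th and 15206th. The balance between the pair changed as well. CA2 made up 50.9% ± 1.7 (SD, n = 3) of the summed FPKM of both in WT, 45.8% ± 3.0 in ring1ab and 38.0% ± 7.1 in emf1-2. The WT libraries lay above all ring1ab and emf1-2 libraries, with an exact two-sided permutation p of 0.1 in each case, the smallest that 3 against 3 libraries allow. In clf28swn7 the share was 29.9% ± 10.0, from the few fragments. The overlap of CA1 with LSF1 given above limits the shares of emf1-2 and clf28swn7.

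Among the other 4 beta carbonic anhydrases, 1 rose and 1 fell in emf1-2, beside 13.7% of tested genes called higher and 12.4% called lower. BCA3 was at 7.06, 5.22 and 5.97 FPKM in WT and 20.4, 22.1 and 33.0 in emf1-2, so it rose by a log2 fold change of 1.86 (SE 0.25, limma adjusted p = 5.2e-05). In clf28swn7 it was at 22.4, 18.5 and 11.3 FPKM, also above WT. BCA4 was at 103, 114 and 118 FPKM in WT, 53.8, 72.5 and 60.1 in emf1-2 and 39.0, 38.4 and 37.5 in clf28swn7. BCA5 fell in emf1-2, from 50.5, 53.8 and 54.9 FPKM in WT to 20.3, 22.4 and 25.3 (log2 fold change -1.20, SE 0.09, adjusted p = 4.2e-07). BCA6 was at 70.1, 68.6 and 66.4 FPKM in WT, 33.2, 45.6 and 39.2 in emf1-2 and 13.8, 12.8 and 15.1 in clf28swn7. In ring1ab none of these 4 genes was called.

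**Figure D3:**
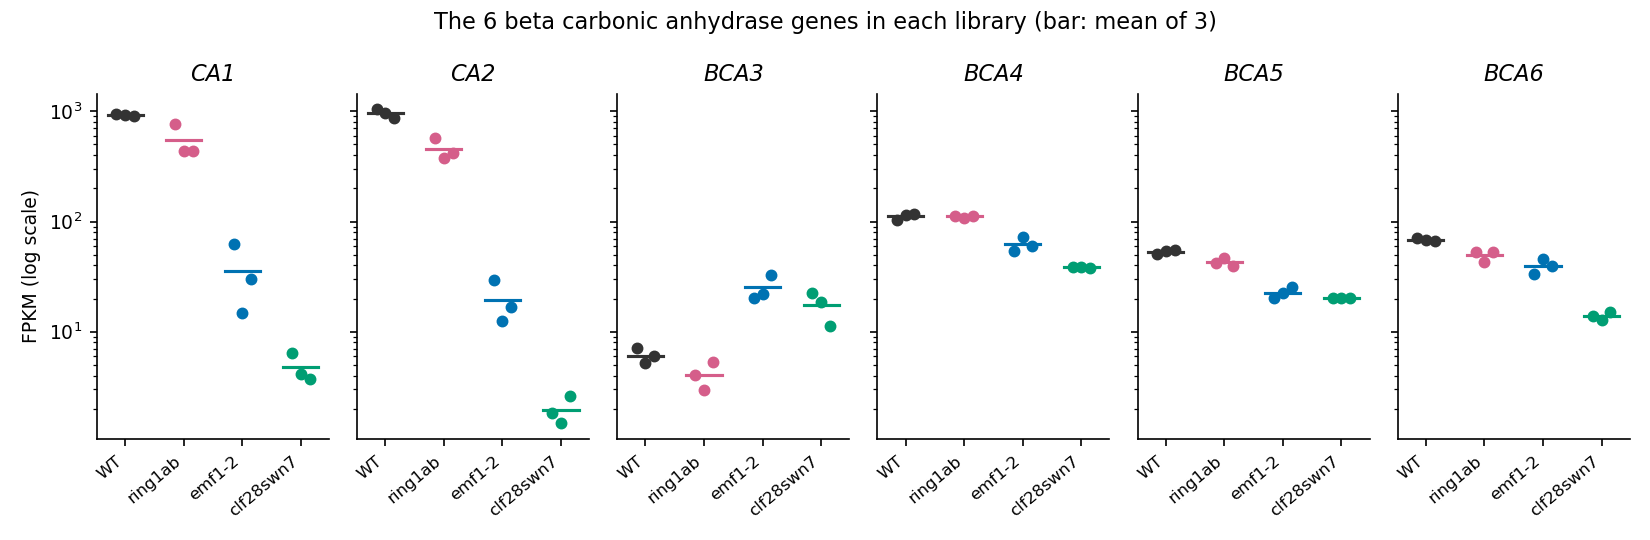
FPKM on a log scale (y axis) of the 6 beta carbonic anhydrase genes in the 4 genotypes (x axis), with 1 point per library and a bar at the mean of 3. CA1 and CA2 go from 877 to 1045 FPKM in WT to between 1.47 and 6.42 in clf28swn7, whereas BCA3 is above WT in emf1-2 and clf28swn7.

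Of the 15 carbonic anhydrase genes listed beside CA1 and CA2, 11 were tested. In emf1-2 2 fell and 1 rose (median log2 fold change -0.15), in ring1ab 0 were called (median -0.004), and in clf28swn7 4 were called lower and 1 higher (median 0.12). Over all tested genes, 12.4% were called lower and 13.7% higher in emf1-2. The shares were 1.03% and 7.16% in ring1ab and 12.3% and 15.1% in clf28swn7. Besides the beta genes, only the alpha carbonic anhydrase ACA1 was called among those tested. ACA1 was at 26.1, 28.4 and 26.3 FPKM in WT, 18.4, 28.2 and 31.4 in ring1ab, 1.17, 0.872 and 0.716 in emf1-2 and 1.25, 1.67 and 1.00 in clf28swn7. Its fall in emf1-2 was 3.87 on the log2 scale (SE 0.18, limma adjusted p = 1.0e-08). In ring1ab the ACA1 libraries overlapped with WT.

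Among the small subunit genes, RBCS1A kept the largest part of its WT level in every mutant. RBCS1A was at 7651, 7212 and 7093 FPKM in WT, 6626, 5305 and 5300 in ring1ab, 2650, 2109 and 2298 in emf1-2, and 2440, 2090 and 2445 in clf28swn7. The severe mutants overlapped, with means of 2352 and 2325 FPKM. RBCS1A fell by 1.64 on the log2 scale in emf1-2 (SE 0.11, limma adjusted p = 2.3e-07). In ring1ab the log2 difference was -0.36 (SE 0.11, adjusted p = 0.031), under the fold threshold. RBCS1A still ranked 7th of all genes by mean FPKM in emf1-2 and 12th in clf28swn7, after 2nd in WT and in ring1ab.

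RBCS2B was at 2469, 2508 and 2498 FPKM in WT, 1220, 1167 and 1165 in ring1ab, 201, 164 and 202 in emf1-2, and 133, 101 and 113 in clf28swn7. Its libraries within WT and within ring1ab were the closest together of the 4 genes. RBCS2B fell by 3.72 on the log2 scale in emf1-2 (SE 0.11, limma adjusted p = 4.6e-10) and by 1.07 in ring1ab (SE 0.11, adjusted p = 2.5e-05), where it was called together with CA2. The difference between emf1-2 and ring1ab was -2.65 (SE 0.11, adjusted p = 7.0e-09).

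RBCS3B was at 3065, 2900 and 2875 FPKM in WT, 2085, 1523 and 1487 in ring1ab, 632, 449 and 489 in emf1-2, and 323, 225 and 274 in clf28swn7. It fell by 2.51 on the log2 scale in emf1-2 (SE 0.17, limma adjusted p = 1.9e-07), and its ring1ab difference of -0.81 (SE 0.17, adjusted p = 0.0033) was under the fold threshold. As in RBCS1A, replicate 1 was the highest library in each of WT, ring1ab and emf1-2.

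RBCS1B was at 1171, 1089 and 1200 FPKM in WT, 590, 716 and 483 in ring1ab, 272, 225 and 364 in emf1-2, and 71.4, 42.3 and 57.8 in clf28swn7. As a ratio of means, its step between emf1-2 and clf28swn7 was the largest of the B genes. RBCS1B fell by 2.03 on the log2 scale in emf1-2 (SE 0.21, limma adjusted p = 6.2e-06). The ring1ab difference was -0.97 (SE 0.21, adjusted p = 0.0045), just under the fold threshold, and it passed at -1.01 without WT replicate 2 and at -1.11 without ring1ab replicate 2. Between emf1-2 and ring1ab it was lower by a log2 difference of -1.06 (SE 0.21, adjusted p = 0.00095). That difference missed the threshold, at -0.92, without ring1ab replicate 2 and, at -0.90, without emf1-2 replicate 2.

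Summed over RBCS1B, RBCS2B and RBCS3B, whose coding sequences are the most alike of the 4 genes, FPKM was 6591 ± 105 (SD, n = 3) in WT, 3479 ± 385 in ring1ab, 999 ± 142 in emf1-2 and 447 ± 80 in clf28swn7. These sums were 52.8, 15.2 and 6.78% of WT, beside 78.5, 32.1 and 31.8% for RBCS1A. The makeup of the small subunit pool therefore moved toward RBCS1A. RBCS1A made up 52.6% ± 0.70 of the 4 genes in WT, 62.2% ± 1.16 in ring1ab, 70.2% ± 1.54 in emf1-2 and 84.0% ± 1.51 in clf28swn7. All ring1ab and all emf1-2 libraries lay above all WT libraries, and the exact two-sided permutation p was 0.1 for each, the smallest possible with 3 against 3. RBCS2B went from 17.9% of the pool in WT to 12.9% in ring1ab, 5.65% in emf1-2 and 4.17% in clf28swn7. RBCS3B went from 21.2% to 18.3, 15.5 and 9.84%, and RBCS1B from 8.30% to 6.52, 8.58 and 2.04%. The RBCS1B shares of ring1ab and emf1-2 overlapped with WT (exact permutation p = 0.3 and 1).

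**Figure D4:**
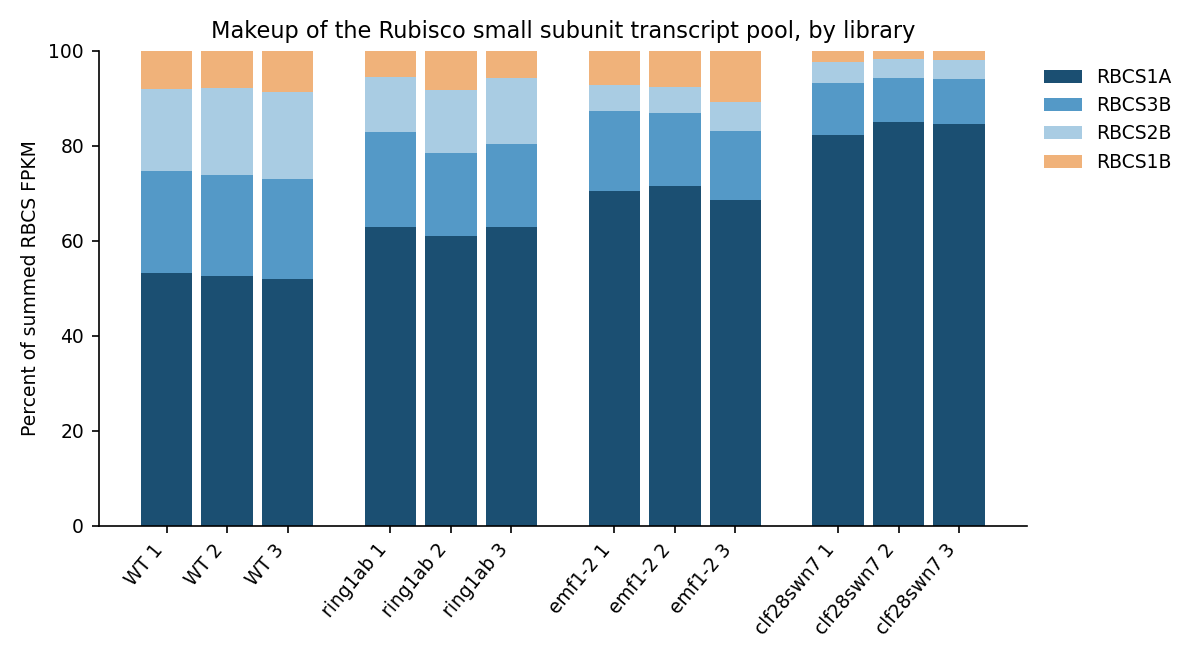
Percent of the summed FPKM of the 4 RBCS genes (y axis) taken by each gene in each of the 12 libraries (x axis, genotype and replicate number). The RBCS1A share rises from 51.9 to 53.3% in WT libraries to 82.2 to 85.03% in clf28swn7 libraries.

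RCA, which works on the assembled enzyme, was at 1145, 1098 and 1103 FPKM in WT, 874, 727 and 624 in ring1ab, 313, 211 and 220 in emf1-2, and 181, 135 and 161 in clf28swn7. It fell by 2.19 on the log2 scale in emf1-2 (SE 0.17, limma adjusted p = 4.9e-07), and its ring1ab difference was -0.60 (SE 0.17, adjusted p = 0.016), under the fold threshold. The summed RBCS FPKM per RCA FPKM was 12.5 ± 0.08 in WT, 12.5 ± 0.88 in ring1ab, 13.7 ± 1.63 in emf1-2 and 17.5 ± 1.00 in clf28swn7. The summed RBCS FPKM per FPKM of CA1 plus CA2 was 7.36 ± 0.24 in WT, 9.50 ± 1.53 in ring1ab, 74.0 ± 33.8 in emf1-2 and 419 ± 53 in clf28swn7 (SD, n = 3 each).

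The genes of the reductive step, GAPA and GAPB, differed in the size of their fall. GAPA was at 894, 802 and 829 FPKM in WT, 512, 480 and 493 in ring1ab, 264, 215 and 202 in emf1-2, and 145, 112 and 132 in clf28swn7. It fell by 1.89 on the log2 scale in emf1-2 (SE 0.11, limma adjusted p = 8.0e-08), and the ring1ab difference of -0.76 (SE 0.11, adjusted p = 0.00042) was under the fold threshold. GAPB, whose product is the regulatory subunit, was at 390, 371 and 368 FPKM in WT, 329, 277 and 254 in ring1ab, 189, 150 and 165 in emf1-2, and 120, 106 and 116 in clf28swn7. It had the smallest fall of the 10 members in emf1-2, 1.16 on the log2 scale (SE 0.11, adjusted p = 2.5e-06), and a ring1ab difference of -0.40 (SE 0.11, adjusted p = 0.015). GAPB therefore took a growing part of the pair, from 30.9% ± 0.64 (SD, n = 3) of GAPA plus GAPB in WT to 36.6% ± 2.6 in ring1ab, 42.6% ± 2.1 in emf1-2 and 46.8% ± 1.6 in clf28swn7. No ring1ab or emf1-2 library overlapped with WT in this share (exact two-sided permutation p = 0.1 for each, the smallest possible).

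PRK, of the regenerative phase, was at 576, 568 and 584 FPKM in WT, 382, 366 and 309 in ring1ab, 142, 116 and 149 in emf1-2, and 114, 88.4 and 99.9 in clf28swn7. It fell by 2.08 on the log2 scale in emf1-2 (SE 0.12, limma adjusted p = 5.7e-08). The ring1ab difference was -0.71 (SE 0.12, adjusted p = 0.00091), under the fold threshold. The step from emf1-2 to clf28swn7 was narrow, although the libraries stayed apart.

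Ordered by mean FPKM, which is per length, WT had RBCS1A, RBCS3B, RBCS2B, RBCS1B, RCA, CA2, CA1, GAPA, PRK and GAPB. RBCS1B and RCA overlapped, as did CA2 and CA1, and the other neighbours were apart. In clf28swn7 the order was RBCS1A, RBCS3B, RCA, GAPA, RBCS2B, GAPB, PRK, RBCS1B, CA1 and CA2, and the 5 genes from RCA to PRK overlapped with their neighbours. GAPB, the lowest member in WT, was thus above PRK, RBCS1B, CA1 and CA2 by its mean in clf28swn7. Replicate 1 was the highest library for 7 of 10 members in WT, 9 in ring1ab, 7 in emf1-2 and 8 in clf28swn7. Its median deviation from the genotype mean over the members was 0.04, 0.21, 0.20 and 0.19 on the log2 scale, beside -0.06, -0.02, 0.003 and 0.02 over all tested genes.

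Upstream sequences of RBCS2B, PRK and CA2 are printed because the genes fell together and because they hold, or lack, the motif letters searched. Each is the 300 bases before the annotated gene start in TAIR10.1, 5′ to 3′ on the strand of the gene, with capitals for a match, on either strand, to the motifs listed after them. RBCS2B is at chr5:15382072-15382371 (minus strand), PRK at chr1:11531899-11532198 (plus strand) and CA2 at chr5:4757556-4757855 (plus strand).
RBCS2B: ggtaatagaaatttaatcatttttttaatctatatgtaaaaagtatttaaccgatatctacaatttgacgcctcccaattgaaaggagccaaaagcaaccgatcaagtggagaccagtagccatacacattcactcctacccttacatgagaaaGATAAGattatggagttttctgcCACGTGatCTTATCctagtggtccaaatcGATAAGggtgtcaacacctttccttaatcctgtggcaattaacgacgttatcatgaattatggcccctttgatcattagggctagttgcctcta
PRK: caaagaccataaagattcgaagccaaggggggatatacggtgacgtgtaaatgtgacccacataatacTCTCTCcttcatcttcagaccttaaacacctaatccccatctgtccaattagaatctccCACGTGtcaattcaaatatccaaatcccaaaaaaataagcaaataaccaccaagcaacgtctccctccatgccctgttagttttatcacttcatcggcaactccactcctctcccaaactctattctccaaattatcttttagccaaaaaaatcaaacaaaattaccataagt
CA2: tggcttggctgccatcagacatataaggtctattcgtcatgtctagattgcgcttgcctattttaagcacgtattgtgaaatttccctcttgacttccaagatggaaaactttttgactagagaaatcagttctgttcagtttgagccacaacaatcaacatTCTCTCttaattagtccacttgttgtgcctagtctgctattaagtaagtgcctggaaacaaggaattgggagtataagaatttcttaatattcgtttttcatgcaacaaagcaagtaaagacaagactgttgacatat
Both strands of such windows were searched for 5 motifs in 26711 genes. The G-box CACGTG was in 7.18% of all windows and in those of RBCS2B and PRK, and the I-box GATAAG was in 14.5% of all windows and in those of RBCS2B and RCA. RBCS2B held the G-box between 2 of its 3 I-box matches. CCAATC, found in 12.1% of windows, was in that of RCA. The repeat GAGAGA was in 23.5% of windows and in those of 5 members, RCA, CA1, CA2, GAPA and PRK. The telobox AAACCCTA was in 5.17% of windows and in none of the 10. No matches overlapped in these windows. A match is a description of the sequence only, and the annotated starts of RBCS1A, RBCS1B and RBCS3B are those of long transcripts, so that their windows lie well upstream of the coding sequence. CA1 and GAPA each overlap a neighbouring gene on the same strand, by 343 and 13 bases. Whether their windows lie within that neighbour was not checked.

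The other genes of the pathway and its neighbours were taken from lists, to be read against the background above for genes called lower and against 13.7% of tested genes called higher in emf1-2, 7.16% in ring1ab and 15.1% in clf28swn7. Of 16 other Calvin-Benson cycle genes, 8 fell and 0 rose in emf1-2 (median log2 fold change -1.05), and 1 fell and 1 rose in ring1ab (median -0.39). In clf28swn7 10 were called lower and 2 higher (median -1.31). CP12-2, a small protein that binds GAPDH and PRK, was at 143, 123 and 137 FPKM in WT, 48.9, 68.9 and 58.2 in ring1ab, 27.9, 24.8 and 37.4 in emf1-2 and 10.0, 7.42 and 7.98 in clf28swn7. It fell by 2.14 on the log2 scale in emf1-2 (SE 0.17, limma adjusted p = 5.6e-07) and by 1.19 in ring1ab (SE 0.17, adjusted p = 0.00024). HCEF1, the chloroplast fructose-1,6-bisphosphatase, fell by 2.00 in emf1-2 (SE 0.11, adjusted p = 3.4e-08), from 166, 167 and 166 FPKM to 42.8, 38.6 and 41.4, and was at 39.9, 30.02 and 34.4 in clf28swn7. FBA1, a plastid aldolase, fell by 1.88 in emf1-2 (SE 0.13, adjusted p = 2.3e-07), from 157, 149 and 151 FPKM to 49.6, 37.8 and 35.7, and stood at 128, 96.6 and 111 FPKM in clf28swn7. GAPA-2, the second GAPA gene, was at 290, 208 and 283 FPKM in WT and 51.2, 42.2 and 48.0 in clf28swn7.

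A pair of genes of this list went the other way. TKL2 (AT2G45290), a transketolase gene, was at 17.5, 20.0 and 20.2 FPKM in WT, 41.0, 49.3 and 42.9 in ring1ab, 36.8, 35.9 and 34.4 in emf1-2 and 107, 108 and 114 in clf28swn7. Its rise in ring1ab was 1.16 on the log2 scale (SE 0.09, limma adjusted p = 2.0e-06). FBA3 (PDE345), a further plastid aldolase, was at 164, 180 and 172 FPKM in WT and 368, 390 and 394 in clf28swn7, above WT in every library.

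Of 9 genes for Rubisco assembly, 1 fell in emf1-2 (median log2 fold change -0.59), 0 were called in ring1ab (median -0.48) and 3 were called lower in clf28swn7 (median -0.73). The gene called in emf1-2 was RbcX1, a chaperone of the large subunit, which was at 58.5, 46.8 and 63.6 FPKM in WT, 20.8, 26.0 and 22.1 in emf1-2 and 6.49, 5.13 and 4.50 in clf28swn7 (log2 fold change in emf1-2 -1.25, SE 0.16, limma adjusted p = 3.0e-05). MRL1, required for the large subunit transcript, and AT3G04550 were also called lower in clf28swn7, with log2 differences of -1.51 and -1.01. Of 9 genes for thioredoxins and their reductases, which switch the cycle on in the light, 4 fell in emf1-2 (median -0.87), 0 were called in ring1ab (median -0.40) and 8 were called lower in clf28swn7 (median -1.29). FTRA2, THM1 and TRX-M4 led in emf1-2 with log2 fold changes of -1.33 (SE 0.20, adjusted p = 9.8e-05), -1.20 (SE 0.11, adjusted p = 2.1e-06) and -1.18 (SE 0.10, adjusted p = 1.4e-06). In clf28swn7 the same 3 genes had -1.70, -1.92 and -1.88.

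Photorespiration recovers the carbon lost when Rubisco takes up oxygen. Of its 15 listed genes, 10 fell in emf1-2 (median log2 fold change -1.26), 1 fell in ring1ab (median -0.72), and 10 were called lower and 1 higher in clf28swn7 (median -2.29). AGT, the peroxisomal serine to glyoxylate aminotransferase, was at 841, 782 and 891 FPKM in WT, 659, 387 and 432 in ring1ab, 201, 195 and 236 in emf1-2 and 76.6, 50.2 and 64.9 in clf28swn7. It fell by 1.99 on the log2 scale in emf1-2 (SE 0.19, limma adjusted p = 3.6e-06). GDCH, of the glycine decarboxylase, fell by 2.00 (SE 0.09, adjusted p = 7.9e-09) and GOX1, a glycolate oxidase, by 1.78 (SE 0.10, adjusted p = 4.9e-08) in emf1-2. SHM1, the mitochondrial serine hydroxymethyltransferase, and LrgB, a plastid glycolate and glycerate transporter, had log2 differences of -2.76 and -2.75 in clf28swn7. GLDP1, the P protein of glycine decarboxylase, was the gene called in ring1ab, at 67.8, 69.1 and 51.3 FPKM against 136, 138 and 152 in WT (log2 fold change -1.18, SE 0.11, adjusted p = 1.6e-05). CAT2, a peroxisomal catalase, was the gene called higher in clf28swn7, at 503, 493 and 505 FPKM against 184, 163 and 189 in WT.

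The genes for starch, sucrose and export did not move one way. Of 14, 1 fell and 4 rose in emf1-2 (median log2 fold change 0.40), 0 fell and 2 rose in ring1ab (median -0.02), and 2 were called lower and 3 higher in clf28swn7 (median 0.38). GPT2, which carries glucose 6-phosphate across the plastid envelope, was at 0.051, 0.409 and 0.378 FPKM in WT, 12.5, 11.7 and 6.23 in ring1ab, 33.8, 46.7 and 49.6 in emf1-2 and 104, 117 and 146 in clf28swn7. It rose by 5.11 on the log2 scale in emf1-2 (SE 0.24, limma adjusted p = 1.2e-08) and by 3.08 in ring1ab (SE 0.24, adjusted p = 3.3e-06). APL3, a large subunit of ADP-glucose pyrophosphorylase, rose by 3.78 in emf1-2 (SE 0.14, adjusted p = 1.9e-09), from 3.93, 4.14 and 4.36 FPKM in WT to 82.4, 66.6 and 62.0, and was at 121, 163 and 155 in clf28swn7. GBSS1, the granule-bound starch synthase, rose by 2.22 in emf1-2 (SE 0.20, adjusted p = 2.0e-06) and by 1.63 in ring1ab (SE 0.20, adjusted p = 0.00012), and its clf28swn7 level was 57.0, 66.6 and 60.01 FPKM against 1.39, 1.06 and 1.83 in WT. APL1, the large subunit of leaves, fell by 1.53 in emf1-2 (SE 0.10, adjusted p = 1.3e-07). APE2, the triose phosphate translocator that exports the product of carbon fixation, was at 356, 322 and 328 FPKM in WT and 94.5, 84.6 and 89.8 in clf28swn7.

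Of 11 counterparts of the cycle enzymes that work outside photosynthesis, 3 rose and 1 fell in emf1-2 (median log2 fold change 0.44), 1 rose in ring1ab (median 0.43), and 3 were called higher in clf28swn7 (median 0.65). GAPC1, the cytosolic glyceraldehyde-3-phosphate dehydrogenase of glycolysis, was at 243, 267 and 275 FPKM in WT and 803, 743 and 721 in emf1-2, a rise of 1.53 on the log2 scale (SE 0.08, limma adjusted p = 2.8e-08), and at 687, 632 and 625 in clf28swn7. GAPCP-2, a plastid enzyme of glycolysis, rose by 1.37 in emf1-2 (SE 0.08, adjusted p = 6.7e-08) and by 1.13 in ring1ab (SE 0.08, adjusted p = 1.8e-06), and GAPCP-1 rose by 1.17 in emf1-2 (SE 0.09, adjusted p = 7.8e-07). PPC3, a phosphoenolpyruvate carboxylase, fell by 1.14 in emf1-2 (SE 0.15, adjusted p = 3.3e-05). In emf1-2, then, GAPA and GAPB, of the Calvin-Benson cycle, fell and GAPC1, of glycolysis in the cytosol, rose.

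**Figure D5:**
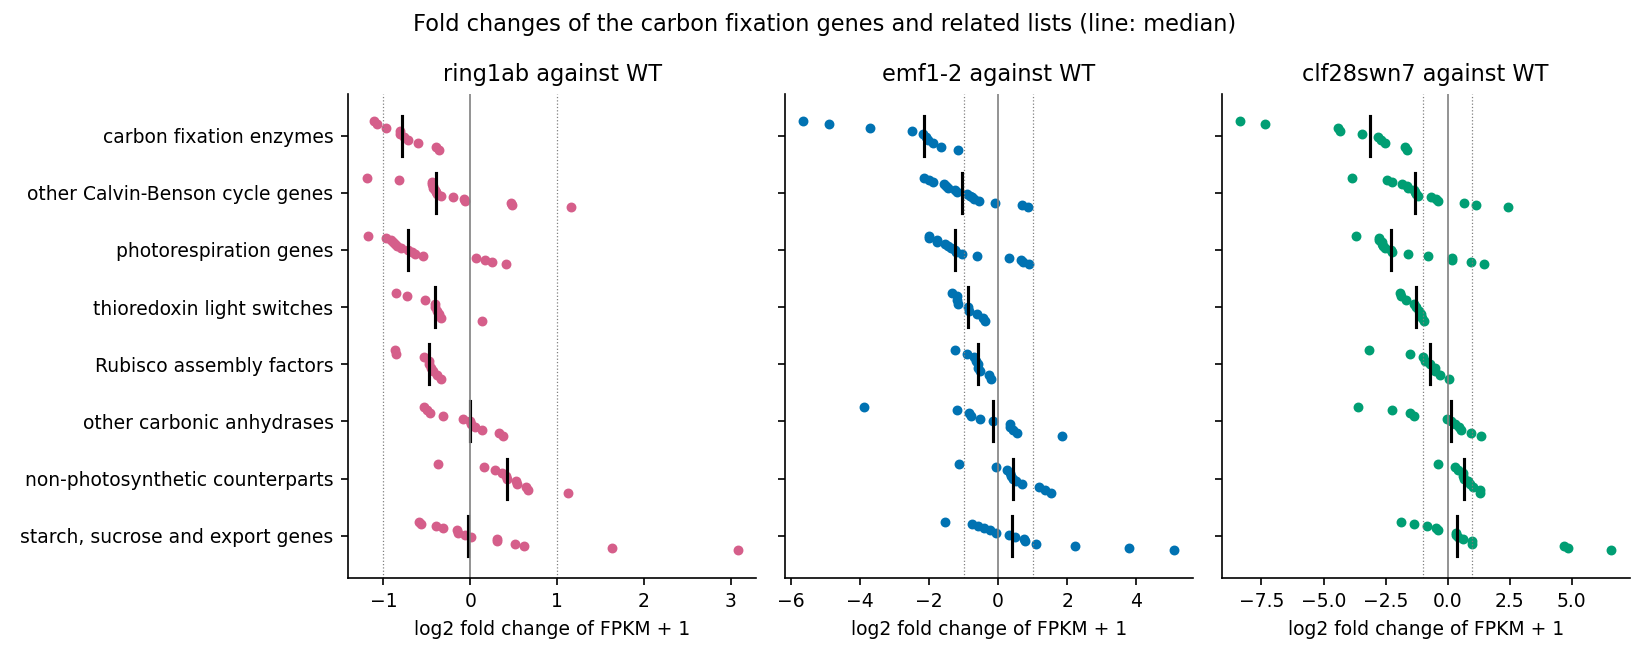
Log2 fold changes on the log2(FPKM + 1) scale (x axis, a separate scale for each panel) of the 10 carbon fixation enzymes and 7 related gene lists (rows) in ring1ab, emf1-2 and clf28swn7 against WT, with 1 point per tested gene, a black line at the median and dotted lines at a size of 1. The carbon fixation enzymes have the lowest median in each panel (-0.79, -2.14 and -3.13), followed by photorespiration (-0.72, -1.26 and -2.29). This order is a description, because the members and lists were chosen with earlier results of these data known. CA2 was chosen from clf28swn7 against WT, and all panels share the WT libraries.

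Genes outside the set were ranked by how closely they followed it across the 12 libraries. The closest to the mean profile of the 10 members on the log2(FPKM + 1) scale were CSP41A (Pearson r = 0.997), VAR2 (0.996), HDS (0.995), AT2G16380 (0.995) and EMB3126 (0.995), and the closest to CA2 alone were PETC (0.996), BGAL2 (0.995) and AT2G16380 (0.995). The points are libraries of 4 genotypes that share their group means, and the values are a description. CSP41A, a chloroplast RNA-binding protein, had mean FPKM of 257, 168, 67.6 and 33.4 in WT, ring1ab, emf1-2 and clf28swn7. PETC, the Rieske protein of the cytochrome b6f complex, had 460, 362, 148 and 77.8.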

How the data were processed

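Per the labels and the methods, the authors aligned reads with HISAT2 (TAIR10), used StringTie and ballgown to estimate expression, and deposited an FPKM value for each gene and library. Versions, strand setting and filters are not given in the sources used here, and the sources name both a total RNA library kit and polyadenylated RNA. FPKM values carry no counts, so depth was estimated. Here, log2(FPKM + 1) entered 1 limma fit (version 3.58.1, R 4.3.3, default eBayes) of 12 libraries and 21227 genes, those at 1 FPKM or more in 3 libraries or more. Fold changes on this scale understate those of low genes. The sources do not say whether replicates were separate sowings, so p-values measure only the spread between these libraries. The members and lists were chosen with earlier results of these data known. On simulated data for emf1-2 against WT over 21227 genes, 200 of 200 changed genes were recovered and 22 unchanged genes were called. Recovery near the fold threshold or in low genes was not tested separately. Names and sequences came from TAIR10.1 (RefSeq), and 32835 of 33602 IDs matched. Of the listed IDs, 5 that the reference does not name so were left out. Named genes were all members, the beta carbonic anhydrases, per list and mutant up to 3 called genes with the largest non-overlapping change, called genes against the trend of their list, and the closest profiles. Shares were compared by exact permutation in scipy 1.17.1. Alternatives were a pseudocount of 0.1, no filter, adjusted p, fits of compared genotypes alone, trended robust eBayes, a replicate block, median-of-ratios and TPM scaling, and leaving out each library.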

Additional observations from a re-analysis of the deposited data

How the results depend on the processing

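The 10 members stayed lower than WT in every mutant under every alternative run. Leaving out 1 library, 10 to 10 members were called in emf1-2, 2 to 3 in ring1ab, 8 to 9 between emf1-2 and ring1ab, and 10 to 10 were past the fold in clf28swn7. With a pseudocount of 0.1, 397 genes were called lower in ring1ab in place of 219, and CA2 in clf28swn7 was at -8.90 on the log2 scale. Of the listed pathway genes, 2 were called lower in ring1ab, and 2 to 5 when 1 library was left out, with 5 without ring1ab replicate 1. RBCS1B in ring1ab passed the fold at -1.03 with median-of-ratios scaling, and its difference between emf1-2 and ring1ab was -0.998, just short of it, on the TPM scale. Median-of-ratios scaling moved the median of all genes in emf1-2 from 0.19 to 0.02.

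Across all tested genes, correlations of same-numbered deviations lay between -0.14 and 0.08, so equal replicate numbers were not taken as pairs, although replicate 1 was the highest library for 7 to 9 of the 10 members in every genotype. With the replicate block, 10 members were called in emf1-2, 2 in ring1ab and 9 between them, with 2634, 221 and 2996 genes called lower, and it changed no call of a member count. Depth limits CA1 and CA2 in clf28swn7, which rest on an estimated 62 to 203 fragments per library.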
